A study of Mus musculus with 32 samples.

Results

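The subject is the passage of the mouse oocyte from the germinal vesicle (GV) stage to metaphase II (MII) in follicles that were not vitrified. Members were the oocytes labelled fresh: 16 of the 32 sequenced oocytes, 4 at the GV stage and 12 at MII. All were wild type (WT). Preantral follicles had been grown in encapsulated in vitro follicle growth (eIVFG) culture for 8 days. GV oocytes were taken from the grown follicles on day 8, before any ovulatory hormone. MII oocytes were taken after ovulation on day 9, and their treatment is labelled as fresh and human chorionic gonadotropin (hCG). Strain, age, mouse and culture dish are not given in the sources used here. Each oocyte was 1 library made with the SMART-Seq2 v4 kit for ultra low RNA input and is called a biological replicate, so p-values measure the spread between oocytes that may share a mouse or a dish. The comparison asks which transcripts differ before and after maturation. The other 16 oocytes, from vitrified follicles, entered the fit only for its estimate of spread.

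A fully grown GV oocyte is held in prophase of the first meiotic division by cyclic AMP from the follicle, and its genome has become silent. On the ovulatory signal cyclin B and CDK1 become active, the nuclear envelope breaks down, a polar body is extruded and the egg stops again at metaphase II until fertilization. Without transcription, the mRNA pool of that day is known to change through decay, through storage and through lengthening of poly(A) tails. The library kit primes on poly(A) tails, so a count can follow the tail as well as the number of molecules. Each value is also a share of its library, and the RNA content of an oocyte was not measured: a gain of a transcript and a smaller loss of it than of the rest cannot be told apart.

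Total counts ran from 10357543 to 17687247 in GV and from 6196976 to 10142902 in MII oocytes. All values of GV oocytes were whole, whereas 14.6% to 18.7% of the values of each MII oocyte were not, so stage and the form of the deposited values cannot be told apart. Oocyte markers, 16 of 16 in the table, summed to 20173 to 28610.3 CPM in GV and 21464 to 52614 CPM in MII oocytes, and none was at 0 throughout a stage. Markers of cumulus expansion, the response of the surrounding somatic cells to hCG, summed to 5.86 to 17.6 CPM in GV oocytes, where 7 of 15, among them Areg, Ereg and Ptx3, were at 0 throughout. In MII oocytes their sum had a median of 1.88 CPM, but it was 51.4 CPM in replicate 1 and 899 CPM in replicate 11. Granulosa markers (17 in the table) summed to 236 to 395 CPM in GV, 148 to 234 CPM in 11 MII oocytes and 4579 CPM in MII replicate 11. Theca and stroma markers summed to 3.28 to 6.63 CPM in GV and 1.65 to 16.1 CPM in MII oocytes. Spp1, a secreted phosphoprotein, was at 0 in all GV oocytes, and reached 1716 CPM and 2979 CPM in MII replicates 1 and 11. The sum of immune and endothelial markers was 18.2 to 25.3 CPM in GV and 42.6 to 117 CPM in MII oocytes, with Pecam1, a junction protein of endothelium, the largest part. Several list medians and per-oocyte values are given with and without MII replicates 1 and 11. The part of these cells in any other result was not tested.

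Fewer transcripts rose than fell at maturation, and the falls were deeper. Of 11470 genes tested with edgeR, 2615 (22.8%) rose and 3413 (29.8%) fell at an adjusted p under 0.05, which is 52.6% in either direction. Every deposited gene summed to at least 10 over the MII oocytes, fresh and vitrified together, whereas 376 genes were at 0 in all GV oocytes. Transcripts nearly confined to GV oocytes may therefore be missing. The balance of rises and falls, the shares of all genes and the detected genes hold only for the deposited genes, and this limit was not tested. The median log2 fold change was −2.74 among genes that fell and 1.77 among those that rose. Below, each fold change is log2 of MII over GV with its standard error (SE), and every gene said to rise or fall passed the edgeR threshold. Single values are CPM, counts scaled to a common library size with TMM factors. A log2 change beyond 3 was reached by 375 rises and 1501 falls, and one beyond 5 by 123 rises and 400 falls. The 12 MII oocytes all lay above the 4 GV oocytes for 1435 genes (12.5%) and all below them for 2125 (18.5%). For 820 genes (7.15%) the fit placed the whole 95% interval of that change between −1 and 1. Without MII replicates 1 and 11 the counts were 2604 and 3738. Within the 2 series of MII library numbers, a possible batch, they were 2466 and 3393 (under 20) and 2362 and 2765 (20 and over). Fresh GV libraries were numbered 81 to 84 and fresh MII libraries 2 to 25. A batch that goes with these numbers cannot be told apart from stage, and the split of MII libraries does not address it.

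The balance of rises and falls moved with scaling. The median log2 fold change of all genes was −0.23 with TMM, −0.37 with relative log expression factors and −0.61 with total counts, and the share of calls that were rises was 43.4%, 39.1% and 32.5%. Changes of lists below are read against −0.23, and their counts of rises and falls against 22.8% and 29.8% of all tested genes. Among the 6599 tested genes whose values were whole in all MII oocytes, 10.53% rose and 36.1% fell, with a median of −0.84. Their median level was 2.12 log2 CPM against 5.29 for the other tested genes, and a list median over its whole-valued members is read against −0.84. Wholeness was judged on the MII values that are compared, so such medians are not an independent check. Of all tested genes 33.9% share more than 5% of their sampled 31-base words, or of their exon bases, with another gene. They made up 43.5% of the rises and 41.8% of the falls beyond 3, and their counts may be split or borrowed, so the share is given where such a gene is described.

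**Figure D1:**
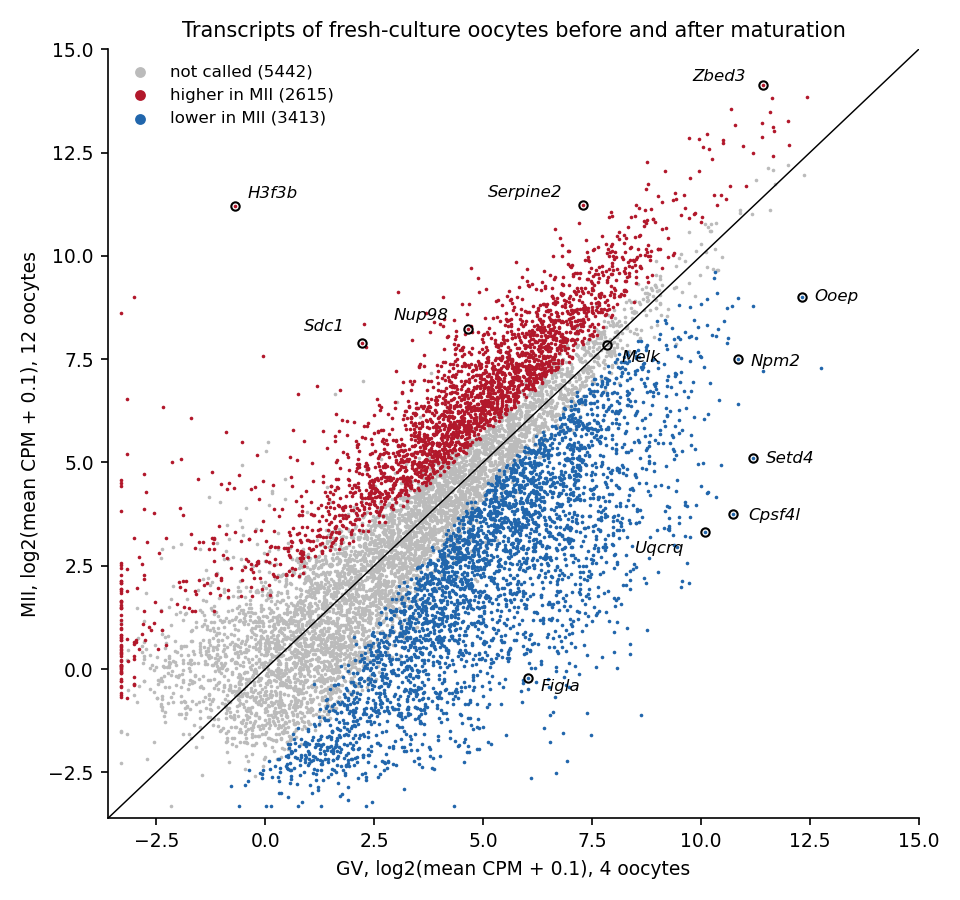
Mean CPM of each tested gene in 4 GV oocytes (x) and 12 MII oocytes (y), both as log2(CPM + 0.1), with the diagonal of equality and colours for genes higher (2615), lower (3413) or not called by edgeR. Circles mark genes described in the text, from H3f3b far above the diagonal to Setd4, Uqcrq and Cpsf4l far below it.

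MII counts were held by fewer genes. The 100 highest genes of each oocyte took 21.9%, 20.3%, 28.6% and 22.7% of counts in the GV oocytes and 33.2% to 42.4% in the MII oocytes, without overlap. The means were 23.4% ± 3.64 (SD, n = 4) and 37.0% ± 2.91 (SD, n = 12; exact permutation p = 5.49e-04, two-sided, the smallest that these group sizes can give, adjusted p = 0.00110 over 4 tests). The effective number of genes, the exponential of Shannon entropy, was 2813 ± 422 (SD, n = 4) and 1505 ± 193 (SD, n = 12; exact permutation p = 5.49e-04, adjusted p = 0.00110). After thinning to the lowest depth, 11432 ± 314 genes were detected in GV and 10577 ± 537 in MII oocytes (SD, n = 4 and 12; exact permutation p = 0.0104, adjusted p = 0.0139). MII replicates 1 and 11, with 11386 and 11729 genes, were the 2 that reached the GV range. With the MII oocytes of library numbers 20 and over alone the difference was −579 genes and not past the threshold (exact permutation p = 0.119). The distance of an oocyte from the mean profile of its group (1 minus Spearman's rho) was not called different between stages (0.0629 ± 0.0239 and 0.0584 ± 0.0426, SD, n = 4 and 12; exact permutation p = 0.879). MII replicate 11 was the farthest, at 0.191, and without replicates 1 and 11 the MII oocytes differed from GV by −0.0199 (exact permutation p = 0.0310).

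**Figure D2:**
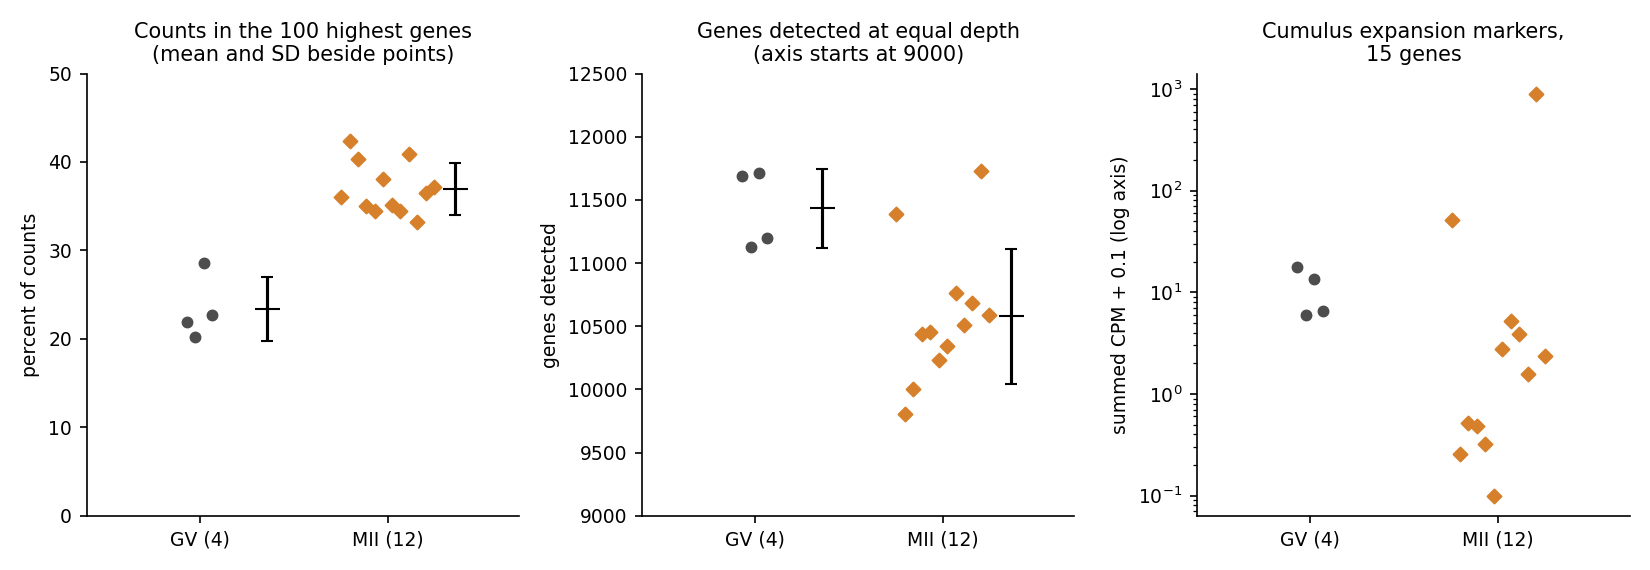
One point per oocyte for the percent of counts in the 100 highest genes, the genes detected after thinning to equal depth (axis not from 0) and the summed CPM of cumulus markers (log axis), with mean and SD beside the points in the first 2 panels. MII replicates 1 and 11 hold both the highest cumulus sums and the most detected genes among MII oocytes.

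Most transcripts that control cyclic AMP rose. Of 18 tested genes of this list 11 (61.1%) rose and 2 (11.1%) fell, against 22.8% and 29.8% of all genes, and the median was 0.88. It stayed above 0 under each scaling and was 1.11 over its 6 whole-valued members. Gnai3, an inhibitory G protein subunit that lowers adenylyl cyclase activity, was measured at 39.4, 41.3, 54.8 and 19.8 CPM in the 4 GV oocytes and 159.6 to 332 CPM (median 258) in the MII oocytes. The groups did not overlap, and the difference on the log2 scale was 2.70 ± 0.29 (SE; the edgeR adjusted p was 9.71e-10). Pde8a, a phosphodiesterase that breaks down cyclic AMP, had 9.76, 22.7, 15.4 and 8.67 CPM in GV and 50.4 to 92.4 CPM (median 73.98) in MII oocytes, again apart (2.37 ± 0.27, SE). Prkar1a, a regulatory subunit of protein kinase A, moved less, from 74.6, 91.96, 109 and 76.4 CPM to 155 to 262 CPM (median 187), and still without overlap (1.13 ± 0.17, SE).

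Several regulators of CDK1 and of the second arrest rose. In the list of CDK1, cyclin B and their regulators 11 of 30 rose and 6 fell, with a median of 0.50, of 0.35 without MII replicates 1 and 11, and of −0.03 over 12 whole-valued members. Mastl, the Greatwall kinase that restrains the phosphatase opposing CDK1, had 94.9, 67.6, 118 and 47.7 CPM in GV oocytes and 468 to 889 CPM (median 642) in MII oocytes. All MII oocytes were above all GV oocytes, and the difference on the log2 scale was 3.02 ± 0.35 (SE, adjusted p = 5.18e-09). In the list of the Mos-MAPK pathway and MII arrest 8 of 15 (53.3%) rose and 1 (6.67%) fell. Its median was 1.17, but −0.76 over 7 whole-valued members. The call of Mos itself was lost with total counts (0.76, adjusted p = 0.152). It was also lost with MII libraries numbered 20 and over (0.25, adjusted p = 0.672). Fbxo43, known as Emi2, holds the anaphase-promoting complex inactive in the arrested egg. Its GV values were 78.7, 76.2, 73.3 and 142 CPM, with replicate 4 standing above the other GV oocytes, and its MII values ran from 152 to 542 CPM (median 448). The lowest MII oocyte, replicate 11, was just above that GV oocyte (2.15 ± 0.27, SE, adjusted p = 3.81e-08).

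The anaphase-promoting complex, the ubiquitin ligase that these proteins control, split between its members. Of 19 tested genes 5 (26.3%) rose and 8 (42.1%) fell, against 22.8% and 29.8% of all genes. The median of −0.05 changed sign under several settings. Its activator for metaphase, Cdc20, went from 99.3, 122, 112 and 113 CPM in GV to 319 to 669 CPM (median 555) in MII oocytes (2.25 ± 0.23, SE, adjusted p = 4.56e-10). Its activator for prophase arrest and mitotic exit, Fzr1 (Cdh1), went the other way, from 119, 149.9, 45.6 and 196 CPM to 6.01 to 14.2 CPM (median 10.7) (−3.64 ± 0.44, SE, adjusted p = 1.29e-08). For both activators the stages did not overlap, and GV replicate 3 held the lowest Fzr1 value of its stage. Ube2s, the enzyme that lengthens ubiquitin chains on the targets of this ligase, had 3.69, 11.6, 4.699 and 21.2 CPM in GV oocytes and 129 to 362 CPM (median 267) in MII oocytes. No GV oocyte came near the MII range (4.61 ± 0.42, SE, and 5.23 without GV replicate 4). Anapc15, a small subunit, fell from 421, 377, 493 and 419.6 CPM to 13.7 to 48.6 CPM (median 23.7), but shares 77.5% of its 31-base words with other genes, as Cdc20 does for 27.8%.

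Kinetochore genes moved in both directions in large steps. Of 45 tested 14 (31.1%) rose and 19 (42.2%) fell, with a median of −0.22 beside −0.23 for all genes. Among them 12 had every MII oocyte above and 12 every MII oocyte below the GV oocytes, against 12.5% and 18.5% of all genes. The 3 members described next all fell. Cenps, a histone-fold protein of the centromere, had 572, 687, 900.0 and 893 CPM in GV and 34.6 to 94.3 CPM (median 44.2) in MII oocytes (−3.80 ± 0.26, SE, adjusted p = 4.06e-14). Ska1, which couples the outer kinetochore to microtubules, fell from 59.1, 85.3, 150.01 and 53.6 CPM to 3.798 to 11.9 CPM (median 5.69) (−3.78 ± 0.28, SE). Spc24, a subunit of the NDC80 complex, had 216, 267, 323 and 271 CPM in GV oocytes and 2.504 to 11.4 CPM (median 5.09) in MII oocytes (−5.56 ± 0.26, SE, 13.1% shared words). In each of the 3 the highest MII oocyte was far below the lowest GV oocyte.

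Genes of spindle assembly and of chromosome cohesion leaned upward. In the spindle list 32 of 62 (51.6%) rose and 14 (22.6%) fell, against 22.8% and 29.8% of all genes. The median was 1.32, and −0.17 over 18 whole-valued members. Kif23, a motor protein of the central spindle and of cytokinesis, had 313, 255, 276 and 269 CPM in GV oocytes and 757 to 1730.0 CPM (median 1429) in MII oocytes, apart in every oocyte (2.29 ± 0.19, SE, adjusted p = 4.43e-12). Nedd1, which brings the gamma-tubulin ring to the spindle, went from 44.6, 32.3, 56.7 and 22.6 CPM to 260.4 to 606 CPM (median 462) (3.62 ± 0.29, SE, 15.8% shared words). In the cohesin, condensin and separase list 13 of 28 (46.4%) rose and 4 (14.3%) fell, with a median of 0.64. Esco2, an acetyltransferase that locks cohesin on chromatin, had a wide GV range of 175, 93.8, 345 and 71.9 CPM and 602 to 1074 CPM (median 751) in MII oocytes, and the groups did not overlap (2.18 ± 0.34, SE, and 2.79 without GV replicate 3).

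Most genes of the nuclear pore, the gateway through the nuclear envelope that is dismantled at maturation, rose. Of 47 tested genes of pore and lamina 27 (57.4%) rose and 8 (17.02%) fell, with a median of 1.23. It was 1.33 over the 31 members without shared sequence, 0.83 with total counts, and −0.07 over 12 whole-valued members. Nup98 (chromosome 7, 102119398 to 102210176 on GRCm38), a mobile pore protein, was measured at 19.5, 34.96, 26.3 and 19.99 CPM in the GV oocytes and 172 to 446 CPM (median 294) in MII oocytes. No MII value came near the highest GV value (3.58 ± 0.28, SE, adjusted p = 5.61e-13), and 8 of 12 MII values were not whole. Nup160, a scaffold subunit of the outer ring, had 31.8, 39.95, 37.7 and 18.4 CPM and 163 to 328 CPM (median 239) (2.93 ± 0.26, SE). Nup93 of the inner ring had 75.99, 112, 80.7 and 112 CPM in GV and 448 to 922 CPM (median 555) in MII oocytes (2.66 ± 0.22, SE). Ndc1, which anchors the pore in the membrane, had 21.5, 16.5, 16.5 and 14.6 CPM and 68.1 to 136 CPM (median 94.8) (2.50 ± 0.25, SE). The 4 genes belong to different parts of the pore. They were chosen with their values in view, so their separation of the stages is no further support. Of the 47 tested genes 19 had every MII oocyte above every GV oocyte, against 12.5% of all genes.

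**Figure D3:**
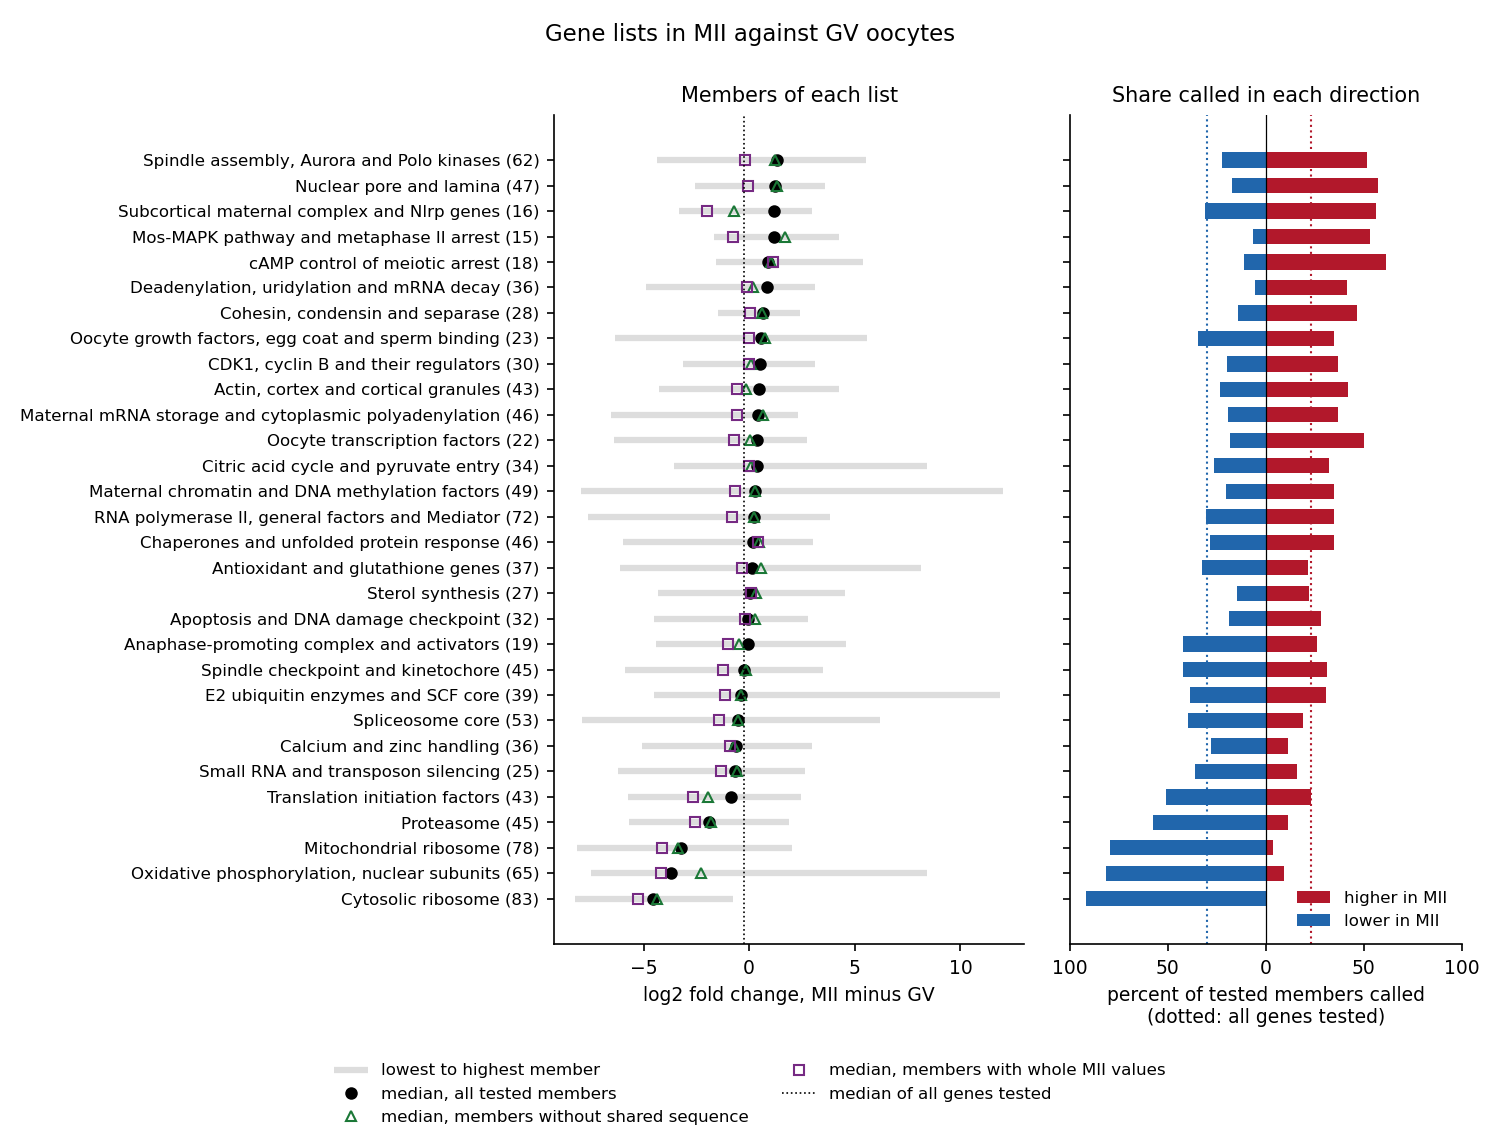
For each list with at least 10 tested members (number in brackets), the left panel gives the median log2 fold change of all members, of members without shared sequence and of members with whole MII values, with the range as a grey bar, and the right panel the percent called higher or lower, with dotted lines at 22.8% and 29.8% for all genes. Nuclear pore, spindle and cyclic AMP lists extend to the right, and ribosomal and oxidative phosphorylation lists to the left.

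Genes of mRNA storage and cytoplasmic polyadenylation moved in both directions, and several of the proteins that coat dormant maternal mRNA fell. In this list 17 of 46 rose and 9 fell, with a median of 0.41 that was −0.59 over 18 whole-valued members. Zar1l, a zinc finger protein of maternal mRNA granules, had 723, 738, 1173 and 809 CPM in GV oocytes and 4.72 to 18.03 CPM (median 7.75) in MII oocytes, a log2 difference of −6.57 ± 0.31 (SE, adjusted p = 3.52e-18). Ybx2, the germ cell Y-box protein that coats and stabilises maternal mRNA, fell from 94.7, 142, 56.3 and 139.9 CPM to 1.35 to 5.94 CPM (median 3.39) (−4.91 ± 0.36, SE). Eif4e1b, an oocyte form of the cap-binding protein, had 105, 188, 45.9 and 152 CPM and 5.41 to 18.9 CPM (median 9.93) (−3.54 ± 0.31, SE, 14.6% shared words). Each of the 3 fell below every GV oocyte in all 12 MII oocytes. Cpeb1, which binds the cytoplasmic polyadenylation element and both represses and activates its targets, had 471, 593, 238 and 588 CPM in GV and 119 to 241 CPM (median 177) in MII oocytes. GV replicate 3, the lowest of its stage, lay just under the highest MII oocyte (−1.40 ± 0.21, SE, adjusted p = 6.37e-07). Dazl, which promotes translation of maternal mRNA, had 408, 232, 689 and 154 CPM in GV oocytes and 527 to 1462 CPM (median 1085) in MII oocytes, with overlap at GV replicate 3. It was called higher (1.43 ± 0.42, SE, adjusted p = 0.00474), a call lost with MII libraries numbered 20 and over (1.07, adjusted p = 0.0511).

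Cpsf4l, a relative of a subunit of the polyadenylation machinery, fell deeply. Its values were 1339.6, 1419, 1251 and 2861 CPM in GV oocytes, with replicate 4 above the rest, and 3.08 to 23.8 CPM (median 13.1) in MII oocytes (−7.00 ± 0.31, SE, adjusted p = 1.25e-18). In the list of deadenylation and mRNA decay 15 of 36 rose and 2 fell, with a median of 0.86, of 0.63 without MII replicates 1 and 11, of 0.18 without shared sequence and of −0.09 over 11 whole-valued members. Xrn2, an exonuclease, rose from 80.8, 107, 88.4 and 48.9 CPM to 252 to 349 CPM (median 283) (1.86 ± 0.19, SE). Ythdf3, a reader of methylated adenosine in mRNA, went from 100.3, 85.8, 79.9 and 33.8 CPM to 226 to 550.3 CPM (median 373) (2.31 ± 0.29, SE). Against them Cnot10, a subunit of the CCR4-NOT deadenylase, fell from an uneven 49.3, 110.0, 27.8 and 109 CPM in GV oocytes to 0.7596 to 5.27 CPM (median 2.86) in MII oocytes (−4.87 ± 0.62, SE, adjusted p = 3.24e-08).

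Secreted and surface proteins of the oocyte moved in both directions. In the list of growth factors, egg coat and sperm binding 8 of 23 rose and 8 fell. The median of 0.54 was 0.23 without MII replicates 1 and 11, 0.12 with total counts and −0.0048 over 10 whole-valued members. Serpine2, an inhibitor of extracellular serine proteases, had 106, 70.9, 278 and 175 CPM in GV oocytes and 1415 to 3657 CPM (median 2467) in MII oocytes (3.93 ± 0.39, SE, adjusted p = 1.71e-10). Plat, the tissue plasminogen activator and a textbook case of an mRNA whose tail is lengthened at maturation, had 509, 553, 832 and 415 CPM and 1371 to 6762 CPM (median 3577) (2.88 ± 0.35, SE, adjusted p = 1.23e-08). The highest Serpine2 and the lowest Plat value of the MII oocytes were both in replicate 11, and in neither gene did the stages overlap. Without replicates 1 and 11 the log2 fold changes were 3.82 and 3.00.

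All 3 egg coat genes examined fell. Zp1, Zp2 and Zp3 encode the glycoproteins of the zona pellucida. Zp2 had 852, 880.4, 740.3 and 1432 CPM in GV oocytes and 77.1 to 476 CPM (median 156) in MII oocytes (−2.25 ± 0.32, SE, adjusted p = 2.64e-07). Zp3 had 1217, 1235, 1255 and 2972 CPM, with replicate 4 apart from the others, and 168 to 769 CPM (median 483) (−1.92 ± 0.28, SE, adjusted p = 4.84e-07). Zp1 had 404, 548, 227 and 764 CPM and 52.1 to 518 CPM (median 131), with GV replicates 1 and 3 inside the MII range (−1.43 ± 0.40, SE, adjusted p = 0.00275). For all 3 the highest MII value was in replicate 3.

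Other surface and signalling genes of the oocyte fell as well. Izumo1r (Juno), the sperm receptor of the egg membrane, had 503, 441, 613 and 771 CPM in GV oocytes and 28.5 to 140.2 CPM (median 53.5) in MII oocytes (−3.31 ± 0.32, SE). Gja4, the connexin that joins oocyte and granulosa cells, fell from 760.1, 889, 526 and 1303 CPM to 48.998 to 205 CPM (median 85.8) (−3.02 ± 0.29, SE, adjusted p = 8.88e-11). Fgf8, a growth factor that the oocyte sends to cumulus cells, had 138, 208, 177 and 252 CPM in GV oocytes and 0.402 to 5.56 CPM (median 1.86) in MII oocytes (−6.34 ± 0.41, SE, adjusted p = 6.86e-15). Every MII oocyte was below every GV oocyte for these 3 genes. Gdf9 and Bmp15 are the paired growth factors by which the oocyte directs its follicle. Gdf9 had 3319.7, 2997, 1805 and 4866 CPM in GV oocytes and 3613 to 8123 CPM (median 5431) in MII oocytes. Bmp15 had 1152, 1248, 1003 and 714 CPM and 953 to 3096 CPM (median 1774). Both overlapped between stages. They were called higher (Gdf9 0.75 ± 0.23, adjusted p = 0.00738, and Bmp15 0.82 ± 0.28, adjusted p = 0.0138), but not with total counts (0.31, adjusted p = 0.277, and 0.42, adjusted p = 0.194). The Bmp15 call was also lost without GV replicate 4 (0.68, adjusted p = 0.0717) and with MII libraries numbered under 20 (0.59, adjusted p = 0.0686). With MII libraries numbered 20 and over the fall of Fgf8 was −7.08.

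**Figure D4:**
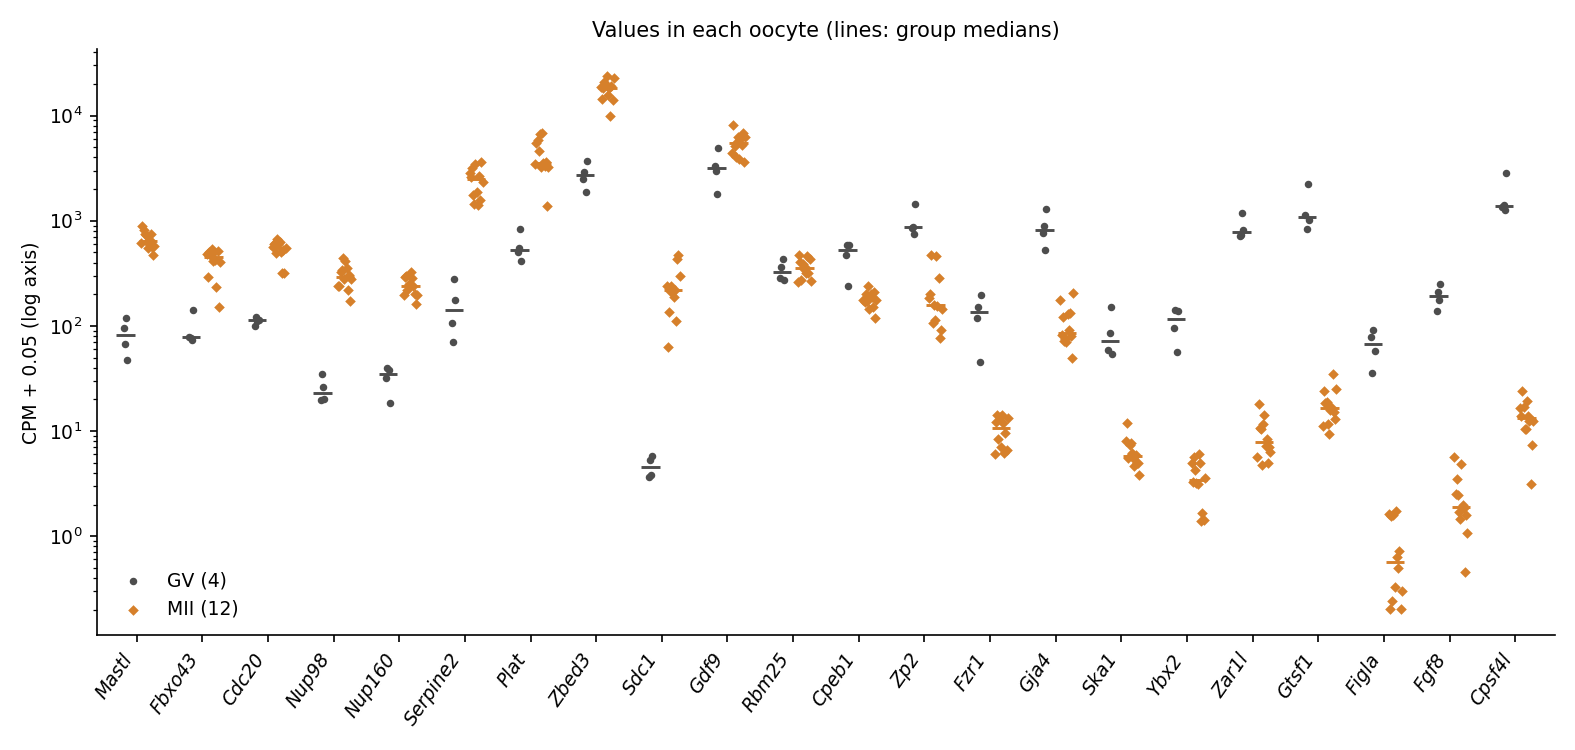
CPM + 0.05 (log axis) of 22 genes in each of 4 GV (circles) and 12 MII (diamonds) oocytes, with lines at group medians, ordered from genes higher in MII to genes lower. Gdf9 and Rbm25 overlap between stages, whereas Zar1l, Gtsf1, Figla, Fgf8 and Cpsf4l lie lower in every MII oocyte than in any GV oocyte.

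Of the oocyte transcription factors, some that build the growing oocyte fell, while more members rose. In this list 11 of 22 rose and 4 fell, and its median of 0.38 was −0.04 without GV replicate 4 and −0.74 over 8 whole-valued members. Figla, which starts the egg coat genes and the follicle programme, had 77.9, 35.2, 92.2 and 57.3 CPM in GV oocytes and 0.154 to 1.696 CPM (median 0.521) in MII oocytes (−6.40 ± 0.57, SE, adjusted p = 1.38e-11, and −7.16 with MII libraries numbered 20 and over). Lhx8, needed for early follicle growth, had 93.9, 76.2, 92.5 and 79.3 CPM and 14.6 to 29.5 CPM (median 22.5) (−1.92 ± 0.26, SE). In contrast Foxo3, which keeps primordial follicles dormant, had 6.32, 11.8, 5.07 and 17.3 CPM in GV oocytes and 45.8 to 106 CPM (median 60.1) in MII oocytes (2.72 ± 0.33, SE, adjusted p = 1.20e-08). None of the 3 overlapped between stages.

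Maternal chromatin factors showed no common direction, with 17 of 49 higher, 10 lower and a median of 0.29 that was −0.13 with total counts. Npm2, the chaperone that remodels sperm chromatin after fertilization, had 1489.9, 1243, 2294 and 2377 CPM in GV oocytes and 91.99 to 316 CPM (median 159.8) in MII oocytes (−3.36 ± 0.26, SE, adjusted p = 5.14e-13). Bmi1, a subunit of Polycomb complex PRC1, rose from 150.4, 194, 154 and 51.4 CPM to 630.1 to 979.8 CPM (median 757) (2.48 ± 0.26, SE, 31.2% shared words). Tet3, which oxidises methylated cytosine in the zygote, was not called at 517, 635, 291 and 547 CPM in GV and 287 to 954 CPM (median 530.3) in MII oocytes. Its log2 difference was 0.29 ± 0.26 (SE, adjusted p = 0.358), and 0.64 (adjusted p = 0.0287) with MII libraries numbered under 20. H3f3b, a gene of histone H3.3, had the largest rise among the genes described here, from 0.729, 1.08, 0.276 and 0 CPM to 1755 to 3601 CPM (median 2149.9). Its MII values were not whole in 9 of 12 oocytes and it shares 13.5% of its words with other genes, and its GV values near 0 are uncertain. Its log2 fold change was 12.01 ± 0.61 (SE), and 12.61 without GV replicate 2.

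The subcortical maternal complex, a protein assembly needed for the first cleavages, had members that rose and members that fell. Of 16 genes of the complex and the Nlrp family 9 rose and 5 fell. The median was 1.19, but −0.72 over the 7 without shared sequence. Ooep had 5011, 3532, 8231 and 3651 CPM in GV oocytes and 190.0 to 1264 CPM (median 465) in MII oocytes (−3.31 ± 0.31, SE, adjusted p = 3.78e-11, and −2.69 with MII libraries numbered 20 and over). Khdc3 had 499, 801, 979 and 1079 CPM and 23.96 to 219.7 CPM (median 72.5) (−3.13 ± 0.37, SE), with 44.5% shared words. Both encode RNA-binding core subunits, and both were lower in every MII oocyte. Zbed3 (chromosome 13, 95323612 to 95337841 on GRCm38), which joins the same complex, had 2494, 2913, 1865 and 3727 CPM in GV oocytes and 9829.9 to 23843 CPM (median 18391) in MII oocytes (2.70 ± 0.27, SE, adjusted p = 2.10e-10). Nlrp4f rose from 374, 423, 585 and 381 CPM to 2095 to 4146 CPM (median 3526) (2.96 ± 0.25, SE, 18.8% shared words). Nlrp5, the first known maternal effect gene of the mouse, had 362, 378, 157 and 649 CPM and 268 to 1970.5 CPM (median 721), overlapping. Its rise of 1.16 ± 0.44 (SE, adjusted p = 0.0248) was not called with total counts (0.69, adjusted p = 0.162). It was also lost without GV replicate 1 (1.13, adjusted p = 0.0623), 2 (1.15, adjusted p = 0.0583) or 3 (0.91, adjusted p = 0.0943), and shares 15.9% of its words.

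Of 25 small RNA and transposon silencing genes 4 rose and 9 fell, shares near the 22.8% and 29.8% of all genes, with a median of −0.66. Gtsf1, a cofactor of Piwi proteins, had 1140.2, 841, 2225 and 1013 CPM in GV oocytes and 9.28 to 34.9 CPM (median 16.3) in MII oocytes (−6.19 ± 0.35, SE, adjusted p = 2.14e-16). Mael, which works in the same pathway, had 94.8, 102, 170.4 and 88.9 CPM and 14.1 to 31.6 CPM (median 23.1) (−2.38 ± 0.29, SE). In both the stages were apart, and GV replicate 3 was the highest oocyte.

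Calcium and zinc genes, which serve the signal of fertilization, fell more often than they rose, with 4 of 36 higher, 10 lower and a median of −0.62. The share called lower (27.8%) was below the 29.8% of all genes. Orai1, a calcium entry channel of the cell membrane, had 39.5, 67.4, 29.1 and 90.995 CPM in GV oocytes and 3.25 to 9.05 CPM (median 5.94) in MII oocytes (−3.24 ± 0.44, SE). Calm2, a calmodulin gene, fell from 977, 855, 2145 and 572 CPM to 13.1 to 185 CPM (median 55.8) (−3.97 ± 0.50, SE, 23.2% shared words). The pair of zinc importers known from maturing oocytes parted. Slc39a10 rose from 219, 267, 330.4 and 203 CPM to 749 to 1215 CPM (median 1042) without overlap (1.94 ± 0.19, SE, adjusted p = 7.78e-11). Slc39a6 had 222, 248, 140.3 and 232 CPM in GV and 35.5 to 176 CPM (median 95.1) in MII oocytes, with GV replicate 3 inside the MII range (−1.08 ± 0.32, SE, adjusted p = 0.00548). The inositol trisphosphate receptor Itpr1, the calcium release channel of the egg, was not called (32.8, 32.2, 8.85 and 17.5 CPM and 18.8 to 46.01 CPM (median 28.6), 0.37 ± 0.30, SE, adjusted p = 0.305).

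Lists of ribosomal and respiratory proteins had the lowest medians. Over the mitochondrial ribosome 62 of 78 members fell and 3 rose, with a median of −3.21. Mrpl55 had 257, 195, 296 and 274 CPM in GV oocytes and 0 to 9.06 CPM (median 1.11) in MII oocytes (−7.18 ± 0.61, SE, adjusted p = 5.64e-12). Mrpl58, another protein of that ribosome, had 222, 174, 250.1 and 252 CPM and 3.25 to 14.7 CPM (median 4.44) (−5.24 ± 0.32, SE). Uqcrq, a small subunit of respiratory complex III, had 1025, 1086, 1128 and 1104 CPM in GV oocytes and 1.03 to 80.3 CPM (median 3.39) in MII oocytes (−6.79 ± 0.76, SE). The highest MII value of all 3 genes was in replicate 11, and without it Mrpl55 fell by 7.81 and Uqcrq by 8.28 on the log2 scale. With MII libraries numbered under 20 and from 20 up, Mrpl55 was at −7.81 and −6.44, and Uqcrq at −7.98 and −5.82. Without MII replicates 1 and 11 the median of the cytosolic ribosome moved from −4.57 to −5.89, that of nuclear subunits of oxidative phosphorylation from −3.71 to −4.42 and that of translation initiation factors from −0.85 to −1.46. Of the 83 cytosolic ribosome genes only 2 are without shared sequence, so that median rests on uncertain counts. Over members without shared sequence the median was −2.29 for oxidative phosphorylation (31 genes) and −3.39 for the mitochondrial ribosome (32 genes).

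Translation initiation and the proteasome had more falls than rises. Of 43 initiation factors 22 fell and 10 rose, and the median of −0.85 was −1.95 over the 19 without shared sequence. Eif1ax, a factor that scans for the start codon, had 694, 548, 1229.6 and 825 CPM in GV oocytes and 8.56 to 44.4 CPM (median 13.1) in MII oocytes (−5.74 ± 0.29, SE, adjusted p = 2.05e-17). Within the proteasome, where 26 of 45 (57.8%) fell and 5 (11.1%) rose, the lowest p-values included 2 helper proteins. Psmg4, an assembly chaperone, had 156, 125, 166 and 168 CPM and 0.563 to 6.01 CPM (median 3.29) (−5.63 ± 0.36, SE). Psmf1, an inhibitor of the core particle, had 273, 221, 387 and 422 CPM and 9.66 to 28.7 CPM (median 18.5) (−4.13 ± 0.24, SE). Both were apart between stages. General transcription factors divided. Gtf2h3 of the repair and initiation complex TFIIH rose from 14.3, 5.405, 19.1 and 6.68 CPM to 103 to 235 CPM (median 159) (3.81 ± 0.31, SE). Gtf2h5 of the same complex fell from 173, 173, 203 and 205 CPM to 2.196 to 15.8 CPM (median 8.16) (−4.57 ± 0.30, SE). Their list had 25 of 72 higher and 22 lower, with a median of 0.25 that was −0.16 with total counts.

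Enzymes that feed the respiratory chain moved in both directions. In the citric acid cycle list 11 of 34 rose and 9 fell, with a median of 0.38, which was −0.01 with total counts. Pdp1, the phosphatase that switches on pyruvate dehydrogenase, had 39.1, 27.7, 19.3 and 18.7 CPM in GV oocytes and 103 to 212 CPM (median 173) in MII oocytes (2.67 ± 0.28, SE, adjusted p = 4.58e-10). Suclg2, a succinyl-CoA ligase subunit, rose from 7.25, 11.1, 19.995 and 14.3 CPM to 75.4 to 173 CPM (median 123) (3.25 ± 0.32, SE, 27.9% shared words). Sdha, the flavoprotein of complex II, is in both this list and that of oxidative phosphorylation, and rose from 97.3, 91.3, 68.9 and 86.4 CPM to 197 to 329 CPM (median 290.4) (1.67 ± 0.18, SE). For these 3 every MII oocyte was above every GV oocyte.

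Large rises were also seen among genes without shared sequence whose level was at least 4 log2 CPM over both stages and which had counts in at least 4 oocytes of each. Some genes with larger fold changes, near 0 in GV oocytes, did not meet these limits. Sdc1, a cell surface proteoglycan, had 3.56, 5.24, 3.78 and 5.76 CPM in GV oocytes and 63.2 to 474 CPM (median 218) in MII oocytes (5.68 ± 0.60, SE, adjusted p = 7.41e-10), with its highest value in the cumulus-high replicate 11 (5.52 without replicates 1 and 11). Slc23a2, a transporter of vitamin C, rose from 17.4, 38.6, 46.2 and 15.6 CPM to 364 to 1173 CPM (median 639) (4.59 ± 0.41, SE). Lrrc8b, a subunit of volume-regulated anion channels, had 6.16, 26.3, 11.9 and 10.3 CPM and 163 to 422 CPM (median 298) (4.39 ± 0.43, SE). All 3 act at the cell membrane, and all had MII values above every GV oocyte. Scml2, a Polycomb group protein, rose from 18.96, 15.1, 18.9 and 14.9 CPM to 205 to 567 CPM (median 311) (4.39 ± 0.40, SE). P4hb, a protein disulfide isomerase of the endoplasmic reticulum, had 10.7, 21.1, 16.1 and 53.2 CPM and 282 to 635 CPM (median 472) (4.18 ± 0.42, SE, and 4.84 without GV replicate 4). For Scml2 and P4hb, too, every MII oocyte was above every GV oocyte. The lowest MII value was in replicate 11 for Lrrc8b and Scml2.

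By the same limits, large falls outside the machines above included 2 enzymes. Setd4, a SET domain methyltransferase, had 1929, 2523, 2357 and 2607 CPM in GV oocytes and 11.7 to 63.6 CPM (median 30.6) in MII oocytes (−6.11 ± 0.32, SE, adjusted p = 4.12e-17). Uck2, which phosphorylates uridine and cytidine, fell from 248, 246, 438 and 391 CPM to 1.83 to 9.06 CPM (median 4.004) (−6.23 ± 0.29, SE, adjusted p = 3.52e-18). For both the highest MII oocyte was far below the lowest GV oocyte.

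Some transcripts held their share. For 22 genes the fit gave a 95% interval of log2 fold change within −0.5 and 0.5. Rbm25, a splicing regulator, had 285, 366, 437 and 271 CPM in GV oocytes and 259.9 to 471 CPM (median 358) in MII oocytes, with a log2 fold change of 0.08 ± 0.19 (SE). Atp2a2, the calcium pump of the endoplasmic reticulum, had 251, 242, 115 and 177 CPM and 134 to 243 CPM (median 205) (0.01 ± 0.21, SE, 7.22% shared words). Melk, a cell cycle kinase, had 265, 184, 276 and 192 CPM and 171 to 357 CPM (median 219) (0.00 ± 0.21, SE). Each overlapped between stages, and Melk was called lower with total counts (−0.39, adjusted p = 0.0343). Dppa3 (Stella), which protects maternal methylation, was not called either (3843, 1665, 8158 and 2786 CPM and 2942 to 8599 CPM (median 4155), 0.19 ± 0.42, SE, 31.3% shared words), and its GV replicates 2 and 3 were the lowest and the highest of their stage.

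Rises and falls were spread unevenly over transcript length and base composition. Among the shortest transcripts (up to 1703 bases, 2295 genes) 11.7% rose and 52.8% fell, with a median of −1.62, and among the longest (5027 bases and over, 2293 genes) 23.7% rose and 16.1% fell, with a median of 0.13. GC content ran the other way: 36.4% rose and 16.7% fell in the quintile lowest in GC, against 11.6% and 39.5% in the highest. Within short transcripts the median was −0.22 with low and −1.47 with high GC, and within long transcripts 0.55 and −0.59. The lists differed in length as well. The median transcript length was 855 bases in the cytosolic ribosome, 861 in oxidative phosphorylation and 1284 in the mitochondrial ribosome, against 3022 over all genes. It was 3772 bases in the nuclear pore list, 3780 in the cyclic AMP list and 4656.5 in the cohesin list. Levels also differed, and in the quintile of highest mean level 48.4% rose and 24.9% fell.

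Cytoplasmic polyadenylation is directed by short U-rich elements near the 3' end of the mRNA, close to the AAUAAA signal. The annotated 3' ends (GENCODE M21 on GRCm38) were searched on the strand of the transcript for TTTTAT or TTTTAAT, letters like this element, within the last 100 bases, and for AATAAA within the last 40. In TTTTAATAAA the last letters belong to both motifs. Of 10856 tested genes with a 3' UTR of at least 100 bases 20.4% held a CPE-like motif and 63.2% an AATAAA. Windows of 30 bases are shown for 5 genes called higher, to show how these letters lie near the annotated end, 5′ to 3′ on the coding strand with motifs in capitals. They lie at chr13:95337807-95337836 for Zbed3, chr6:40466780-40466809 for Wee2, chr9:75351590-75351619 for Bcl2l10, chr11:53437862-53437891 for Gdf9 and chr5:105490029-105490058 for Lrrc8b, all on the plus strand.
Zbed3: ccttttttttTTTTAATAAAcTTTTATtta
Wee2: tcattgtaAATAAAgaTTTTATcttatcca
Bcl2l10: tTTTTAATaacttcaaattcttAATAAAtg
Gdf9: gtggTTTTATgtgacggaagAATAAActgt
Lrrc8b: agattacatTTTTATAATAAAtggcaaata
All 5 windows lie in 3' UTRs. Wee2, the oocyte kinase that holds CDK1 inactive, had 447, 446, 397 and 364 CPM in GV and 1365 to 2299.8 CPM (median 1814) in MII oocytes (2.14 ± 0.17, SE). Bcl2l10, a relative of Bcl2 abundant in oocytes, had 2999, 3797, 5186 and 4429 CPM and 7548 to 11856 CPM (median 9456) (1.25 ± 0.19, SE). Neither overlapped between stages, whereas Gdf9, which holds TTTTAT too, did.

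Genes with the CPE-like motif rose more often, and A/T-rich ends without it did so too. Of 2214 genes with the motif 35.6% rose and 16.1% fell (median 0.52), against 20.3% and 31.6% of 8642 without it (median −0.37). The letters in reverse order, TATTTT or TAATTTT, which make no such element, stood in 21.8% of genes and gave 32.5% and 19.4% (median 0.40). The A/T share of the last 100 bases went with a span from 10.95% higher and 43.2% lower in the quintile poorest in A/T to 36.3% and 15.6% in the richest. In each A/T quintile the share of rises was larger with the CPE-like motif than without it, 20.9% against 10.48% in the poorest and 41.99% against 31.7% in the richest. The reversed letters gave 12.5% against 10.9% in the poorest and 40.5% against 32.3% in the richest. Genes with the reversed letters were counted whether or not they also held the CPE-like motif, so they are no group without it. An AATAAA within 40 bases was found with 25.6% rises and 24.97% falls, and its absence with 19.8% and 34.3%. These are shares of genes given as description, and a match is not a site shown to act.

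**Figure D5:**
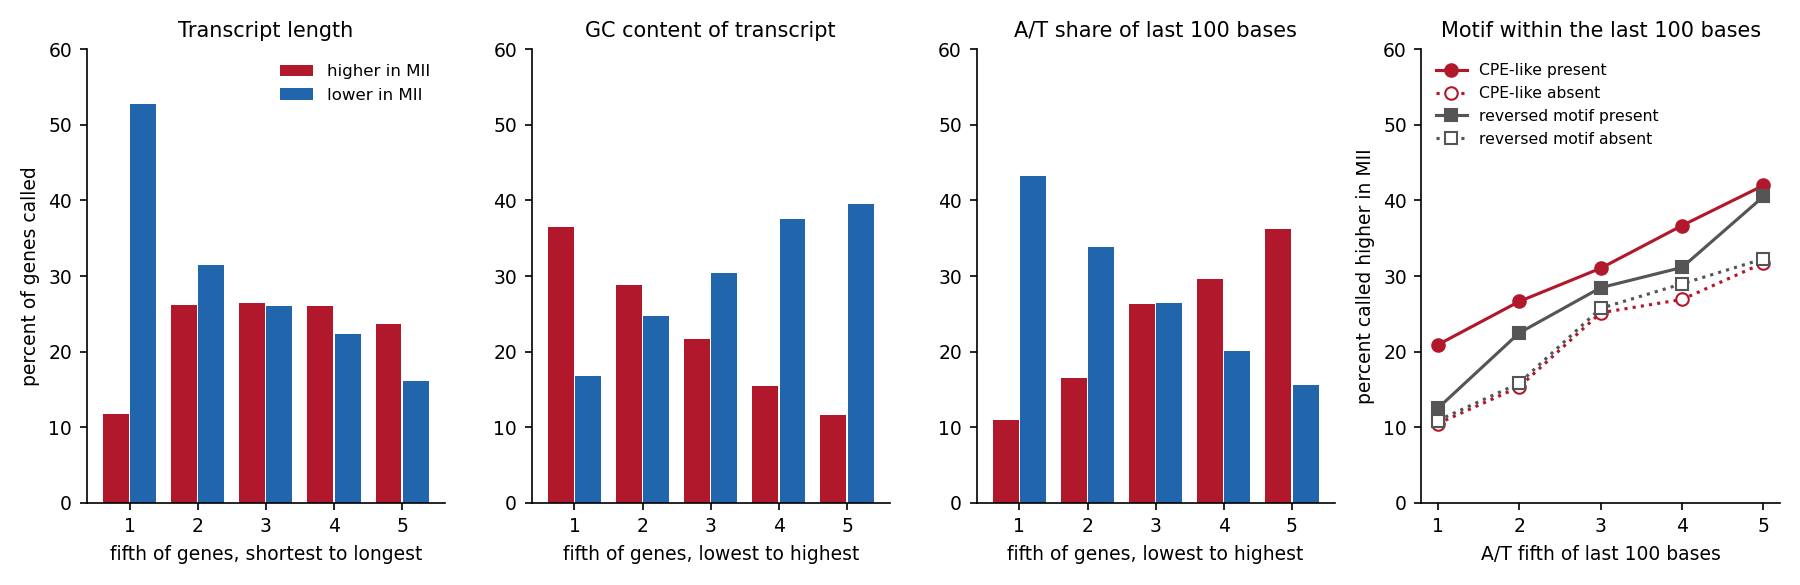
Percent of tested genes called higher (red) or lower (blue) in MII by quintiles of transcript length, GC content and A/T share of the last 100 bases, and percent called higher by A/T quintile with (filled) and without (open) the CPE-like motif or its reversed letters. Short transcripts, GC-rich transcripts and A/T-poor ends go with falls, and the filled red points lie above the open ones in all 5 quintiles.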

How the data were processed

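Single-oocyte RNA was read as 1 deposited table of gene counts. Per the submitters' processing notes, HISAT2, featureCounts and mm10 were used, with no versions stated. The authors deposited whole counts for GV oocytes and values that are in part fractional for MII oocytes, so the deposited MII values were treated like estimated counts and rounded. The design had assumed counts throughout. The sources used here do not give the step that made the fractions.

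From 13202 entries 27 exact repeats were removed. After edgeR's filterByExpr 11470 of 13175 genes were tested by edgeR 4.0.16 (quasi-likelihood test, TMM, 4 group means over 32 libraries, R 4.3.3) with Benjamini-Hochberg adjustment at 0.05. Values per oocyte were compared by an exact two-sided permutation test (scipy 1.17.1). Alternatives used DESeq2 1.42.0, limma 3.58.1, other scaling and filters, thinning, subsets of genes or MII libraries, the replicate block and leaving out each oocyte. The fit was tested on simulated data. Symbols and transcripts came from GENCODE M21 on GRCm38 (13059 genes) and RefSeq (108), and 8 genes were unmatched.

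Members and lists were chosen with earlier results of these data known. Genes were named by rule: the 12 largest rises and falls among called genes with a mean level of at least 4 log2 CPM, counts in at least 4 oocytes of each stage and no provisional name, up to 4 of each list with the smallest p, the 8 highest flat genes, the 6 highest genes of each stage, and genes given by name. The largest changes within the same limits among genes without shared sequence were added after the data were seen, and the text names a subset chosen with values in view.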

Additional observations from a re-analysis of the deposited data

Results flagged for a closer look

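In 4 of 86 genes examined, 1 GV oocyte stood farther from the other 3 than Dixon's 95% limit allows. Chance gives about 1 in 20 groups. Cpsf4l was at 2861 CPM in GV replicate 4, against 1251 to 1419 CPM in the others. Zp3 was at 2972 CPM in the same oocyte, against 1217 to 1255 CPM. Fbxo43, again in replicate 4, was at 142.4 CPM against 73.35 to 78.75 CPM. Mael was at 170.4 CPM in GV replicate 3, against 88.89 to 102.4 CPM.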

How the results depend on the processing

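The counts of 2615 higher and 3413 lower genes stayed within 1.5 times under other scaling, filters, tests, thinning and leaving out oocytes. Over subsets of genes only the count of lower whole-valued genes did. Whole-valued genes alone gave 673 and 2323, genes without shared sequence 1688 and 2121, and genes meeting both conditions 531 and 1695, where fewer genes were tested. In the main fit 22.4% of 7580 genes without shared sequence rose and 28.2% fell, near the 22.8% and 29.8% of all genes. Of 6599 whole-valued genes 10.53% rose and 36.1% fell. Leaving out 1 oocyte at a time gave 2336 to 2626 higher and 3057 to 3633 lower. The share of genes with an interval within −1 and 1 was 7.15%, 4.40% with the replicate block, 3.52% over whole-valued genes, 4.54% with MII libraries numbered 20 and over, 3.42% with both gene conditions and 5.02% to 7.06% without 1 oocyte. The replicate block gave 2288 higher and 3139 lower, and Bmp15 lost its call (0.68, adjusted p = 0.0603). Deviations of oocytes with the same number correlated little (0.0086, −0.0865, 0.0651 and 0.0655). Only replicates 1 to 4 were compared, and this cannot show whether oocytes shared a mouse or a dish. With MII libraries numbered 20 and over the difference in detected genes was −579 (exact permutation p = 0.119). Without MII replicates 1 and 11 the difference in distance was −0.0199 (exact permutation p = 0.0310). Without 1 oocyte the differences were −960 to −761 detected genes, 12.6 to 15.3 percentage points of counts in the 100 highest genes, −1513 to −1199 effective genes and −0.0262 to 0.00244 in distance. Melk was reversed with total counts (−0.39, adjusted p = 0.0343). Over all named genes and alternatives 28 values lost the call, 12 gained it and 5582 kept direction and call, and 152 list medians moved while 840 did not. The cause of these shifts was not tested. Depth limits low genes, and total RNA per oocyte was not measured.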

Other observations

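Of 37 antioxidant and glutathione genes 8 (21.6%) rose and 12 (32.4%) fell, near the 22.8% and 29.8% of all genes. The median of 0.11 was −1.10 without MII replicates 1 and 11 and −0.19 with total counts. Sod1, the cytosolic superoxide dismutase, had 558, 862, 325 and 883 CPM in GV oocytes and 3.66 to 22.4 CPM (median 7.75) in MII oocytes (−6.13 ± 0.33, SE, 35.2% shared words). Gsta4, a glutathione transferase that clears lipid aldehydes, had 538, 492, 1043 and 817 CPM and 5.16 to 24.6 CPM (median 9.95) (−5.98 ± 0.33, SE). In both, every MII oocyte was below every GV oocyte, and the highest MII value was in replicate 11.

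Other lists held both rises and falls, beside the same 22.8% and 29.8% of all genes. Of 53 spliceosome genes 10 rose and 21 fell (median −0.54). Of 46 chaperone genes 16 rose and 13 fell, and the median of 0.18 was −0.27 without MII replicates 1 and 11 and −0.20 with total counts. Of 39 E2 ubiquitin enzymes and SCF genes 12 rose and 15 fell (median −0.39). Of 27 sterol synthesis genes 6 rose and 4 fell, and the median of 0.05 was −0.05 with relative log expression factors, −0.34 with total counts and −0.45 without MII replicates 1 and 11. Of 32 apoptosis and DNA damage genes 9 rose and 6 fell (median −0.04).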
